A study of Rattus norvegicus with 144 samples.

Results

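The genes described here are 7 that mark or answer growing blood vessels: Esm1, Apln, Aplnr, Dll4, Cxcr4, Plvap and Igfbp3. Their members were taken as every array probe set that the platform annotation assigns to one of these symbols, which gave 13 of the 31042 probe sets of the larger table of expression values and 10 of the 15866 probe sets of the smaller table. The smaller table has no probe set for Dll4 and has 1 of the 2 for Aplnr. The rule used gene names and no measured value, but the 7 genes themselves were chosen with earlier results of these data known. The samples were liver, adrenal gland and pancreas of 72 male Sprague Dawley rats aged 8 to 10 weeks, each dosed by mouth every day in a study of AMG A or of AMG B, code names of compounds with antiangiogenic pharmacology. AMG B was given at 3 or 60 mg/kg and AMG A at 3 or 30 mg/kg for 1, 4 or 14 days, and each compound had its own controls at 0 mg/kg on each day. Liver was measured at all 3 days for both compounds, adrenal gland at all 3 days for AMG B and at day 14 for AMG A, and pancreas at day 14 for both. The arrays formed 36 groups of 4 animals, and an animal number that recurs in another tissue of the same study is the same rat.

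As background, sprouting of a new vessel is led by an endothelial tip cell that senses VEGF through its receptors, extends towards it and, by Notch signalling, keeps its neighbours from doing the same. Dll4 is the Notch ligand that tip cells display, Esm1 is a secreted proteoglycan of tip cells that VEGF induces, and Apln is a secreted peptide whose receptor on endothelial cells is Aplnr. Cxcr4 is a chemokine receptor of tip cells that many leukocytes also carry, and Plvap is the protein of the diaphragms that span the pores of fenestrated capillaries, which line endocrine glands, exocrine pancreas and gut. Igfbp3 carries IGF1 in blood and in liver is made mainly by non-parenchymal cells. In mice, adrenal gland is one of the tissues whose fenestrated capillaries are known to depend on continued VEGF signalling.

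The deposited values are scores: each probe set was centred near 0 and scaled to an SD near 1 over all arrays that carry it. A score difference of 1 therefore means about 1 SD of that probe set over the arrays and is not a fold change, and scores of different genes cannot be ranked as levels. The AMG A liver arrays had median scores of -0.77 to -0.73 and SDs of 0.62 to 0.71. In AMG B livers the medians were -0.03 to 0.01 and the SDs 0.79 to 0.99. Sizes of score differences in the livers of the 2 studies are therefore not comparable. Among 9025 probe sets whose tissue means lay more than 2 scores apart, 77.7% had their larger within-group SD in the tissue of highest mean. A linear scale before standardisation would give this. Pancreas arrays also spread most (SD 1.15 to 1.99, against 0.82 to 1.15 in adrenal gland and 0.79 to 0.99 in AMG B liver), so the share does not settle the scale. If the scale was linear, a like proportional change gives a larger score difference where the level is higher. How far a probe set lay above background is unknown. Marker lists followed the tissue labels: adrenal cortex and medulla markers averaged 0.87 to 2.03 in adrenal arrays and at most -0.62 elsewhere, hepatocyte markers 0.32 to 1.28 in liver and at most -0.54 elsewhere, and pancreatic markers 1.66 to 2.71 in pancreas and at most -0.41 elsewhere. The liver and adrenal arrays of animal 35, given 60 mg/kg AMG B for 14 days, stood apart, with highest correlations to any other array of 0.480 and 0.538, where the next array had 0.607. Values without this animal stand below beside the called results that its omission ended or moved most.

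Of 294 tests of a member probe set in a dosed group against its same-day control, limma called 11 at an adjusted p of 0.05, of which 9 were lower and 2 higher in dosed animals, and 37 had a raw p below 0.05. Those are 3.74% and 12.6% of the member tests, against 1.14% and 9.36% of all probe set tests in the same 24 comparisons. AMG B at 60 mg/kg accounted for 10 of the 11 calls in 91 tests (11%, against 3.35% of all probe set tests), and 22 had a raw p below 0.05 (24.2%, against 14.9%). AMG B at 3 mg/kg gave the remaining call in 91 tests, and 7 had a raw p below 0.05 (7.69%, against 6.08%). By gene, Aplnr had 4 calls, Plvap 2, Igfbp3 2, and Esm1, Apln and Dll4 1 each, while Cxcr4 had 0 of 72 tests called. The calls fell by tissue: Aplnr, Plvap, Esm1 and Apln in adrenal gland, Igfbp3 in liver, and Dll4 and Aplnr in pancreas.

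**Figure D1:**
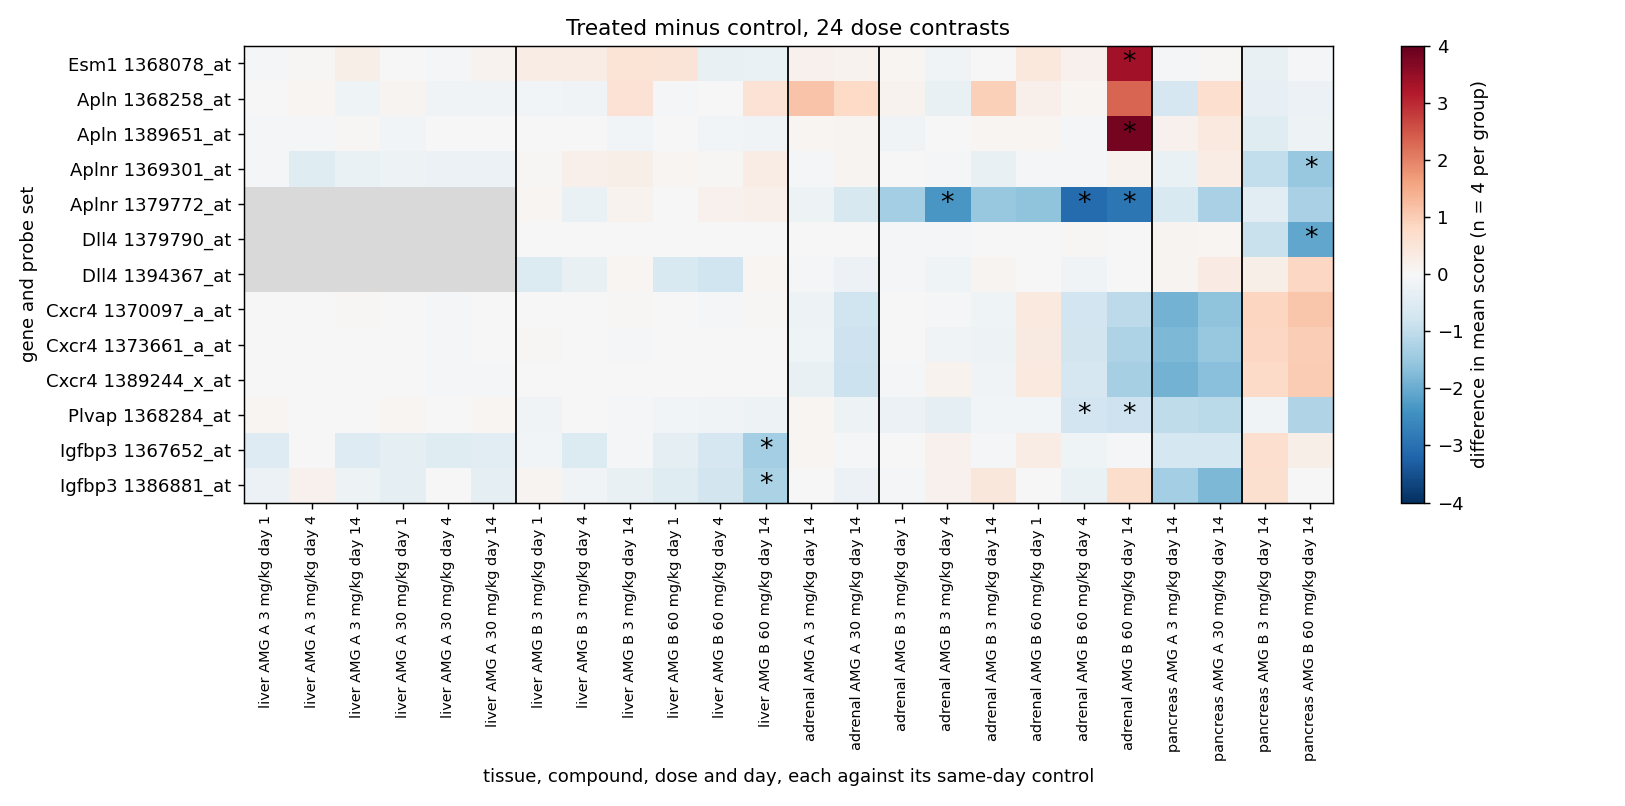
Difference in mean score, dosed minus control, of each member probe set (rows) in each of the 24 dosed groups (columns, n = 4 animals per group). Red is higher and blue lower in dosed animals, stars mark limma adjusted p below 0.05, grey marks probe sets that the smaller table does not hold, and 11 stars appear, all under AMG B.

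In adrenal gland the apelin receptor gave the clearest response to AMG B. Aplnr (chr3:90624055-90627700, GRCr8) has a pair of probe sets, and the one named 1379772_at fell at day 4 and day 14. At day 4 its scores were -1.33, -1.69, -1.83 and -2.03 at 60 mg/kg, against 2.14, 1.03, 0.91 and 1.42 in controls. At 3 mg/kg the scores of that day were -0.59, -1.05, -0.98 and -1.13. Every dosed animal at either dose thus lay below every control, and every 60 mg/kg animal lay below every 3 mg/kg animal. The difference from controls was -3.09 at 60 mg/kg (SE 0.42, 95% interval -3.94 to -2.25, limma adjusted p = 2.7e-05) and -2.31 at 3 mg/kg (95% interval -3.16 to -1.47, limma adjusted p = 0.011). The call at 3 mg/kg was lost without control animal 13, when limma gave an adjusted p of 0.118. At day 4 limma called 0.889% of all probe sets at 60 mg/kg and 0.0354% at 3 mg/kg, against 2 of 13 members (15.4%) and 1 of 13 (7.69%).

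The Aplnr probe set 1379772_at was low at day 14 as well. Its scores were -1.61, -1.01, -0.56 and -1.99 at 60 mg/kg, against 1.96, 1.67, 1.19 and 1.63 in controls, a difference of -2.90 (SE 0.42, 95% interval -3.75 to -2.06, limma adjusted p = 1.9e-05). Animal 35 had the -0.56, and without it the difference was -3.15 (limma adjusted p = 1.05e-05). The 3 mg/kg animals had -0.53, -0.06, 0.29 and 0.66, below every control and above every 60 mg/kg animal, but their difference of -1.52 did not pass the threshold (limma adjusted p = 0.31). At day 1 the 60 mg/kg animals had -0.77, -1.29, -0.77 and -0.81, against -0.64, 2.20, 0.62 and 0.61 in controls. The groups did not overlap, the difference was -1.61 and limma's adjusted p was 0.087. The other Aplnr probe set, 1369301_at, stayed within 0.14 of its controls at 60 mg/kg on all 3 days, with a difference of 0.14 at day 14 (95% interval -0.14 to 0.43, limma adjusted p = 0.67). After subtraction of the mean of each tissue and study, this pair of probe sets correlated at -0.142 over all arrays of the larger table. Where in the gene each lies was not analysed here.

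Plvap (chr16:18218966-18231279, GRCr8), the fenestral diaphragm gene, fell beside Aplnr. At day 4 its scores were -0.08, -0.11, -0.00 and -0.11 at 60 mg/kg, against 1.05, 0.72, 0.48 and 0.49 in controls, a difference of -0.76 (SE 0.19, 95% interval -1.15 to -0.37, limma adjusted p = 0.041). The 60 mg/kg animals were tightly grouped below every control, while the 3 mg/kg animals had -0.09, 0.60, 0.27 and 0.37 and lay between or overlapped (difference -0.40, limma adjusted p = 0.78). This call was close to the threshold: it held in 1 of 8 fits that each left out 1 animal (lost without animal 13, 14, 16, 21, 22, 23 or 24). At day 14 the scores were -0.10, -0.08, 0.61 and -0.32 at 60 mg/kg, against 0.37, 0.85, 0.88 and 1.26 in controls. The 0.61 belonged to animal 35 and made the groups overlap. The difference was -0.81 (95% interval -1.20 to -0.43, limma adjusted p = 0.0063), and without animal 35 it was -1.01 (limma adjusted p = 0.00081). At 3 mg/kg Plvap had 0.92, 0.59, 0.70 and 0.72, a difference of -0.11 from controls (limma adjusted p = 1), and the 60 minus 3 mg/kg difference was -0.71 (limma adjusted p = 0.023). At day 1 the 60 mg/kg difference in Plvap was -0.10 (95% interval -0.49 to 0.29).

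The promoter of Plvap is shown because the gene fell with endothelial genes. It covers 250 bases before to 50 after the start of the gene (RefSeq, GRCr8, chr16:18231230-18231529, minus strand), 5′ to 3′, with capitals marking AGGAAG, a form of the core that ETS factors bind, among them those of endothelial cells. A search of both strands found 2 copies, a match that 34.5% of 33469 rat promoters of this length share in at least 1 copy.
Plvap: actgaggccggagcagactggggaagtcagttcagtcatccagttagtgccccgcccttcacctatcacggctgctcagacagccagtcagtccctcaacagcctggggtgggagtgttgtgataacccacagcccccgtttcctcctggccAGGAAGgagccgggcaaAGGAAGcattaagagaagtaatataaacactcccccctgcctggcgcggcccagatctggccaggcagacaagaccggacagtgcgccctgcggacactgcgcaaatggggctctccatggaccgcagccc

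**Figure D2:**
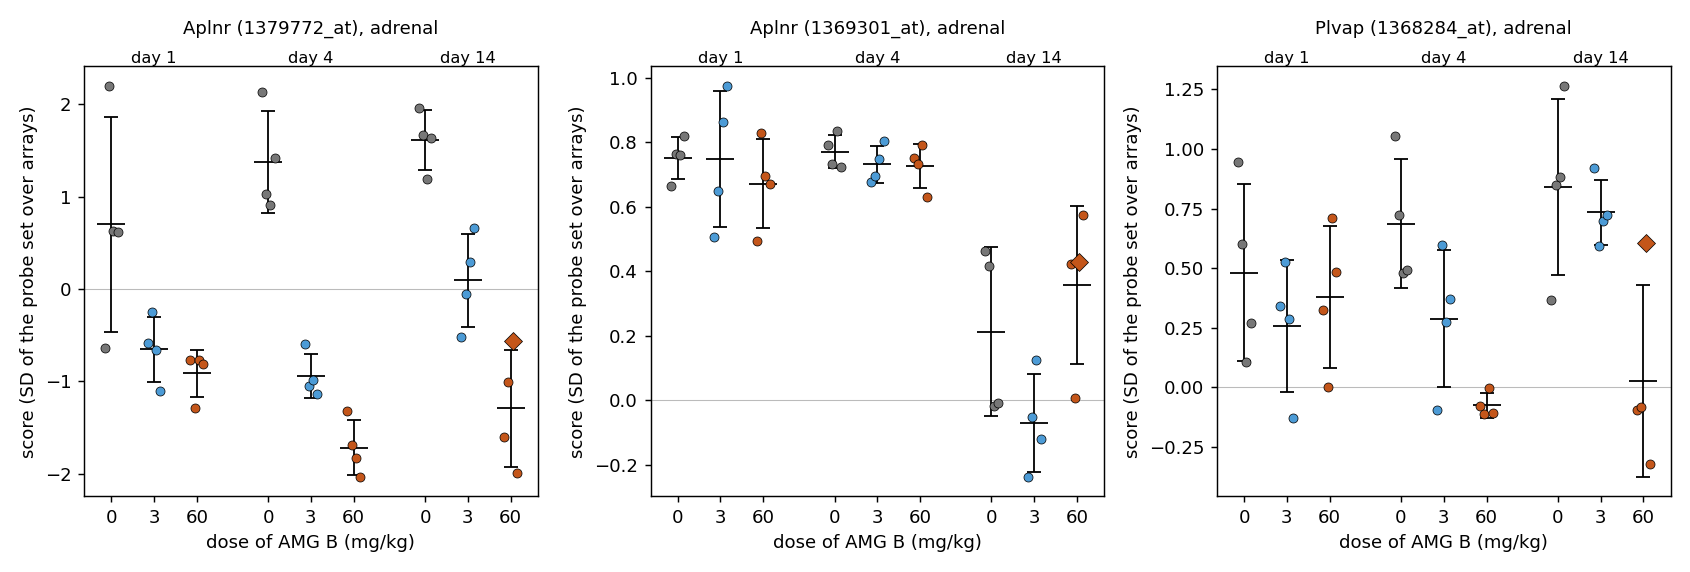
Scores of both Aplnr probe sets and of Plvap in adrenal gland by dose of AMG B and day, 1 point per animal, with bars at the mean ± SD (n = 4) and a diamond for animal 35. Aplnr 1379772_at in dosed animals lies below all controls at days 4 and 14, Aplnr 1369301_at shows no such step, and Plvap is low at 60 mg/kg on days 4 and 14.

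Esm1 and Apln moved the other way, and their calls came at day 14 and 60 mg/kg. Esm1 (chr2:46609253-46617991, GRCr8) scored 1.53, 1.48, 9.44 and 3.47 at 60 mg/kg, against 0.13, 0.59, 0.88 and 0.87 in controls. Every 60 mg/kg animal lay above every control, and animal 35, with 9.44, lay far above the other 3. The difference was 3.36 (SE 0.78, 95% interval 1.79 to 4.94, limma adjusted p = 0.0053), and without animal 35 it was 1.54 (limma adjusted p = 0.0013). At 3 mg/kg Esm1 had 0.50, 0.32, 0.64 and 1.05, a difference of 0.01 (limma adjusted p = 1).

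Apln (chrX:132058739-132091518, GRCr8) gave the same picture at its probe set 1389651_at. The scores were 1.19, 0.85, 11.32 and 0.87 at 60 mg/kg, against -0.17, -0.16, -0.28 and -0.50 in controls. The groups did not overlap, and the 11.32 was again animal 35. The difference was 3.83 (SE 1.04, 95% interval 1.73 to 5.94, limma adjusted p = 0.020) with animal 35 and 1.25 (limma adjusted p = 1.7e-06) without it. Leaving out control animal 28 took limma's adjusted p to 0.0502. The second Apln probe set, 1368258_at, had -0.16, 1.16, 6.36 and -0.03 at 60 mg/kg, against 0.26, -0.43, -0.78 and -1.06 in controls. These groups overlapped, and the difference of 2.33 (limma adjusted p = 0.053) was 0.83 without animal 35 (limma adjusted p = 0.41).

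On day 1 at 60 mg/kg Esm1 had 1.00, -0.06, 0.20 and 0.86, against 0.20, 0.01, 0.36 and -0.29 in controls, a difference of 0.43 (limma adjusted p = 0.96). On day 4 its difference was 0.16 (limma adjusted p = 0.98), and the differences of Apln 1389651_at were 0.08 on day 1 and -0.09 on day 4. At day 14 the receptor probe set Aplnr 1379772_at lay below its controls and the ligand probe set Apln 1389651_at above them. Of this pair, only the Aplnr probe set had passed the test at day 4. The other probe set of each gene, Aplnr 1369301_at and Apln 1368258_at, was not called in adrenal gland on any day. The opposite directions called at day 14 therefore rest on 1 probe set of each gene. At day 14 limma called 5.96% of all probe sets at 60 mg/kg, against 2 members higher and 2 lower of 13 (30.8%), and 8 members had a raw p below 0.05 (61.5%, against 18.8% of all probe sets). Groups that did not overlap made up 10.3% of all probe sets there, and 6 of 13 members, 2 higher and 4 lower.

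Animal 35 differed in markers of other cells as well. In its adrenal array the mean score of 16 pericyte and smooth muscle probe sets was 1.78, against -0.18 to 0.12 in the other 3 animals of its group, and that of 9 fat cell probe sets was 2.13, against -0.46 to 0.62. Leukocyte markers averaged 0.62 in animal 35 and -0.35 to -0.25 in the other 3, general endothelial genes 0.96 and -0.56 to -0.22, and adrenal cortex and medulla markers 0.87 and 1.52 to 1.93. Scores have no true zero, so none of these markers can be said to be absent. Without this animal the Esm1 and Apln 1389651_at differences were smaller and passed the test, as given above. In these bulk samples fewer cells of a type and less RNA per cell cannot be told apart.

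The promoters of Esm1 and Apln are set side by side because the genes rose in the same animals. Capitals mark GCGTG or ACGTG, the core that hypoxia-inducible factors bind, and AGGAAG, each on either strand, so that CTTCCT is AGGAAG read from the other strand. Esm1 (chr2:46609003-46609302, plus strand) holds 2 GCGTG and no AGGAAG, and Apln (chrX:132091197-132091496, minus strand) holds 1 AGGAAG and neither hypoxia core. The Apln window counts from a start that lies inside the gene span given above, so all of it falls within that span. Of 33469 rat promoters 41.6% hold ACGTG or GCGTG and 34.5% hold AGGAAG, so a match describes the letters only. RefSeq promoters were found for 5 of the 7 genes (GRCr8), and Aplnr and Dll4 are named only.
Esm1: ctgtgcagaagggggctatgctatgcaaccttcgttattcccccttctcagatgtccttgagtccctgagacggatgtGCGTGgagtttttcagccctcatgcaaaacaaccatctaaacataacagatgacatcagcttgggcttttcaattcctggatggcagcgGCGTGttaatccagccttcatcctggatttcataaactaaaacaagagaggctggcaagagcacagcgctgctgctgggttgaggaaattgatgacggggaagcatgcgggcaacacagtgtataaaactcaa
Apln: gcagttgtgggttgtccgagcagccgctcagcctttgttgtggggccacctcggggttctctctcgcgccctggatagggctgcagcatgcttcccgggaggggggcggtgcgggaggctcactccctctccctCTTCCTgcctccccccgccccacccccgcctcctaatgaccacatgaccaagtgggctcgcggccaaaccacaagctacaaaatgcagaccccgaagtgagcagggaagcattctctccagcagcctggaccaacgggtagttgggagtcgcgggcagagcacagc

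**Figure D3:**
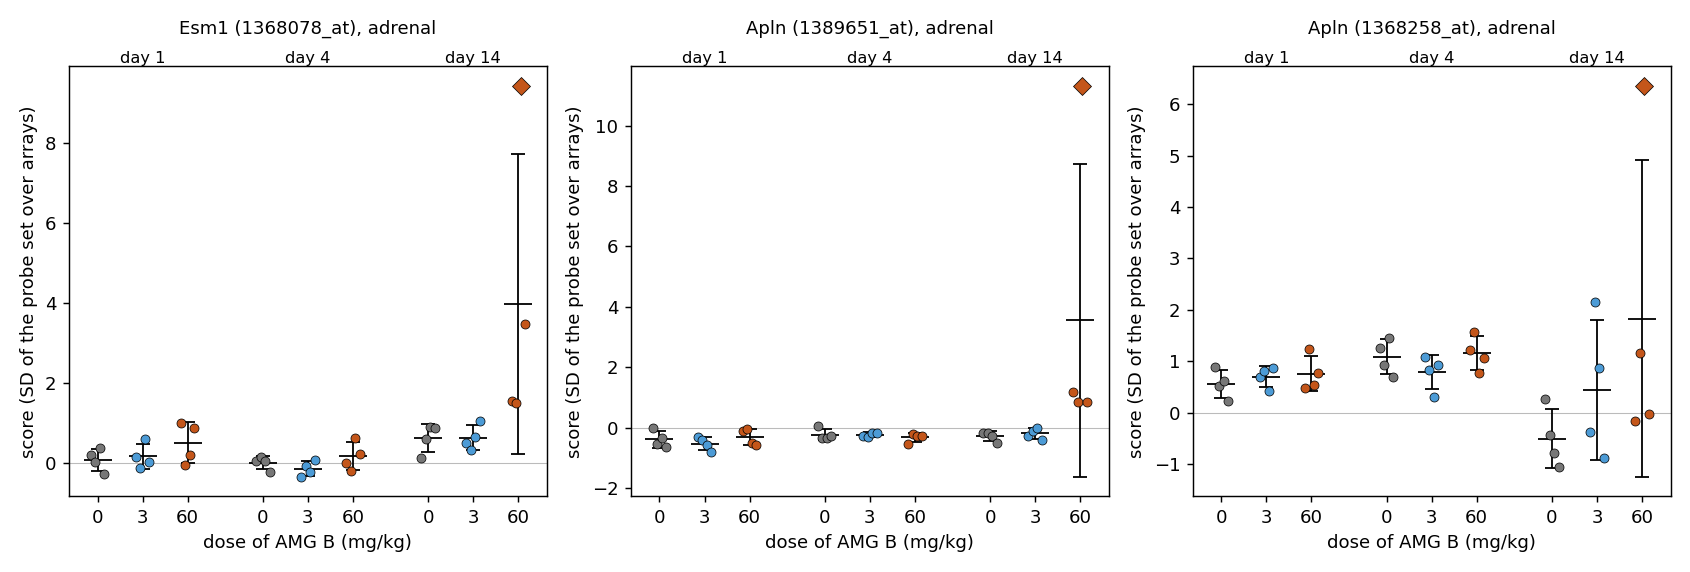
Scores of Esm1 and of 2 Apln probe sets in adrenal gland by dose of AMG B and day, 1 point per animal, with bars at the mean ± SD (n = 4) and a diamond for animal 35. The rise is at day 14 and 60 mg/kg, where Esm1 reaches 9.44 and Apln 1389651_at 11.32 in animal 35 and the other 3 animals lie lower.

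The remaining members were not called in adrenal gland. Cxcr4 (chr13:42630383-42634288, GRCr8) had 0.59, 0.54, 0.56 and 0.41 at probe set 1370097_a_at after 14 days at 60 mg/kg, against 2.52, 1.63, 0.72 and 1.43 in controls. All 4 dosed animals lay below all controls and within a narrow range, and its other 2 probe sets did the same. The differences were -1.05 (95% interval -2.13 to 0.03), -1.23 and -1.33, with limma adjusted p of 0.29, 0.13 and 0.14. Dll4 (chr3:126770945-126780769, GRCr8) differed by -0.01 and 0.00 at its 2 probe sets. Igfbp3 (chr14:86270208-86277944, GRCr8) differed by 0.71 at 1386881_at (limma adjusted p = 0.099) and by -0.07 at 1367652_at. At day 1 limma called 0.335% of all probe sets at 60 mg/kg and 0.00644% at 3 mg/kg, against 0 of 13 members at either dose and 1 had a raw p below 0.05 at each, Aplnr 1379772_at both times. At day 14 and 3 mg/kg it called 0.00322% and 0 of 13 members, and again 1 had a raw p below 0.05.

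Other genes of the same biology are given from lists set out for this description, which were chosen with earlier results of these data known. In adrenal gland at 60 mg/kg, general endothelial genes (33 probe sets) had 4 lower calls at day 1, 8 at day 4 and 8 at day 14 and none higher, with median differences of -0.33, -0.81 and -0.66, against medians of 0.01, 0.01 and 0.00 over all probe sets. Without animal 35 the day 14 count was 15 lower and none higher, 7 of the 8 among them. Tie1 (1389324_at), an orphan partner of the angiopoietin receptor, averaged -1.11 ± 0.86 at 60 mg/kg on day 14 and 1.64 ± 0.64 in controls (SD, n = 4 each). Tek (1393067_at), the angiopoietin receptor, averaged -1.50 ± 0.29 and 1.20 ± 0.28, and its difference was -2.70 (limma adjusted p = 7.8e-10). Among 42 probe sets of other tip-cell and VEGF-responsive genes, 2 were lower at day 1, 5 lower at day 4, and 2 lower and 2 higher at day 14, which without animal 35 became 5 lower and 2 higher. Without that animal 16.7% of this list and 45.5% of the general endothelial list were called at day 14, against 4.96% of all probe sets. The main VEGF receptor of endothelium, Kdr, fell at its probe set 1367948_a_at by 1.40, 2.83 and 2.63 on days 1, 4 and 14 (limma adjusted p of 0.0072, 1.3e-08 and 1.2e-08), and at 3 mg/kg on day 4 it fell by 1.89 (limma adjusted p = 0.00042). The other Kdr probe set, 1397868_at, differed by -0.04 at day 14 and 60 mg/kg. Flt1, a VEGF receptor that also acts as a decoy, has 3 probe sets, and the days on which it fell depended on the probe set. On day 1 1377113_at fell by 1.85 (limma adjusted p = 0.009), while the other two differed by -0.49 and -0.83 without passing. On day 4 1369087_at fell by 1.14 and 1370492_a_at by 2.23 (limma adjusted p of 0.025 and 0.0075), and 1377113_at differed by -1.10 (limma adjusted p = 0.15). On day 14 none was called, with Flt1 differences of 0.04, -0.29 and 0.09 at 1369087_at, 1370492_a_at and 1377113_at. Pecam1 (1371545_at), an adhesion molecule of all endothelium, was not called, with -1.21 on day 4 (limma adjusted p = 0.085) and 0.50 on day 14 (limma adjusted p = 0.49).

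Among 29 probe sets of hypoxia-inducible genes, 19 rose and none fell in adrenal gland after 14 days at 60 mg/kg. That is 65.5%, against 5.96% of all probe sets, with a median difference of 1.31, in the same groups in which Esm1 and Apln rose. The mean of that list was 2.22, 1.36, 1.58 and 1.34 at 60 mg/kg, with animal 35 at 1.58, against 0.22, 0.29, 0.08 and 0.15 in controls. Without animal 35, 17 of the 19 stayed called, none fell and the median difference was 1.19. Slc2a1 (1370848_at), the glucose transporter GLUT1, averaged 4.64 ± 1.67 at 60 mg/kg and 0.25 ± 0.20 in controls (SD, n = 4 each). Vegfa, which both this list and the tip-cell list hold, rose by 1.38 at 1373807_at (limma adjusted p = 0.011) with overlapping groups and differed by 0.74 at 1370081_a_at (limma adjusted p = 0.21). At day 4 none of these 29 was called, nor were Esm1 and Apln. What part, if any, the hypoxia-inducible genes have in the rise of Esm1 and Apln was not tested.

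In liver the member that responded was Igfbp3, and it passed the test at 60 mg/kg AMG B and day 14. Probe set 1367652_at scored 0.09, -0.00, -0.88 and -0.10 at 60 mg/kg, against 1.04, 1.45, 1.10 and 0.95 in controls. No dosed animal reached the lowest control, and the -0.88 was animal 35. The difference was -1.36 (SE 0.29, 95% interval -1.95 to -0.77, limma adjusted p = 0.0046), and -1.14 without animal 35 (limma adjusted p = 0.023). The 3 mg/kg animals had 1.02, 1.00, 0.55 and 1.62, a difference of -0.09 from controls (limma adjusted p = 0.99), and the 60 minus 3 mg/kg difference of -1.27 passed the test (limma adjusted p = 0.011).

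The second Igfbp3 probe set, 1386881_at, gave the same direction. It scored -0.11, -0.23, -1.19 and 0.11 at 60 mg/kg, against 1.01, 1.05, 0.51 and 1.09 in controls, a difference of -1.27 (95% interval -1.94 to -0.60, limma adjusted p = 0.020). Again the groups did not overlap. This call depended on single animals: it was lost without animal 25, 26, 28 or 35, and without animal 35 the difference was -0.99 (limma adjusted p = 0.085). On day 4 the first probe set had 1.92, 1.00, 0.32 and 0.54 at 60 mg/kg, against 1.98, 1.53, 1.66 and 1.30 in controls, overlapping, with a difference of -0.67 (limma adjusted p = 0.33). On day 1 it had 1.26, 1.66, 1.58 and 1.35, against 2.09, 1.62, 1.42 and 2.12. At day 14 limma called 5.66% of all probe sets in this group, against 2 of 13 members (15.4%), and groups that did not overlap made up 9.79% of all probe sets.

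No other member was called in liver under AMG B. At 60 mg/kg limma called 0.0548% of all probe sets at day 1 and 0.68% at day 4, and 0 of 13 members at either, and 1 and 3 had a raw p below 0.05. At 3 mg/kg it called 0.00966%, 0.0226% and 0% of all probe sets at days 1, 4 and 14, and 0 members on each day, and 1, 0 and 0 had a raw p below 0.05. Dll4 1394367_at differed at day 4 and 60 mg/kg by -0.79 (95% interval -1.33 to -0.26, limma adjusted p = 0.16). Its scores there were -0.25, -1.09, -0.42 and -1.28, against 0.10, 0.22, -0.35 and 0.16 in controls, which overlapped through 1 animal on each side. Plvap in liver differed by -0.19 at day 14 (95% interval -0.37 to -0.01, limma adjusted p = 0.21).

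In the same livers, where limma called 5.66% of all probe sets at 60 mg/kg and day 14, the members' partners and other endothelial genes gave the following counts. Of 19 probe sets of ligands, receptors and IGF carriers that partner the members, 6 fell and 1 rose at 60 mg/kg and day 14. Igfals (1387816_at), the third protein of the circulating IGF1 and Igfbp3 complex, fell by 1.29 (limma adjusted p = 0.001), Igf1 (1388469_at) by 0.45 (limma adjusted p = 0.025), and Cxcl12 (1369633_at), the ligand of Cxcr4, by 1.07 (limma adjusted p = 0.012). Igfbp1 (1368160_at) rose by 2.50 with overlapping groups (limma adjusted p = 0.047). Without animal 35 the list had 4 lower and none higher, and of these genes Igfals was still called (-1.14, limma adjusted p = 0.0052). Igf1, Cxcl12 and Igfbp1 were then at -0.39, -0.79 and 1.21, with limma adjusted p of 0.072, 0.057 and 0.21. Of 33 general endothelial probe sets, 14 fell and none rose (median difference -0.39; 12 and none without animal 35), among them Lyve1 (1382732_at), a marker of sinusoidal endothelium, which averaged -0.56 ± 0.41 at 60 mg/kg and 1.30 ± 1.10 in controls (SD, n = 4 each). Of 42 other tip-cell probe sets 4 fell (3 without animal 35), including Kdr (1367948_a_at) by 1.60 (limma adjusted p = 0.00085) and the VEGF co-receptor Nrp1 (1370570_at) by 1.70 (limma adjusted p = 2.7e-06). Among 29 hypoxia-inducible probe sets 2 rose and 1 fell (1 and none without animal 35), and of 6 red cell probe sets 3 fell, with list means of -0.43, -0.78, -0.15 and -0.30 at 60 mg/kg against 0.77, 1.14, 0.91 and 1.04 in controls. With animal 35 left out, limma called 21.1% of the partner, 36.4% of the general endothelial and 7.14% of the other tip-cell probe sets. For hypoxia-inducible and red cell probe sets it then called 3.45% and 50%, against 4.61% of all probe sets. The part of the red cell markers in the Igfbp3 result was not tested.

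The promoter of Igfbp3 (RefSeq, GRCr8, chr14:86277895-86278194, minus strand) is shown as the liver responder. Capitals mark 2 copies of GCGTG, of which the first reads CACGC on this strand, and it holds no ACGTG or AGGAAG. The core GCGTG alone occurs in 29.7% of the rat promoters searched.
Igfbp3: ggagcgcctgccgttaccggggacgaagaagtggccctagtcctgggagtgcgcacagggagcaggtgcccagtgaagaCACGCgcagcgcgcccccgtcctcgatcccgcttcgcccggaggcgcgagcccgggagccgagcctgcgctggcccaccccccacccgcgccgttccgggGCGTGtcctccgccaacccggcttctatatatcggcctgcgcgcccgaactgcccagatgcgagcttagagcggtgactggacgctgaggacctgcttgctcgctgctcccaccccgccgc

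**Figure D4:**
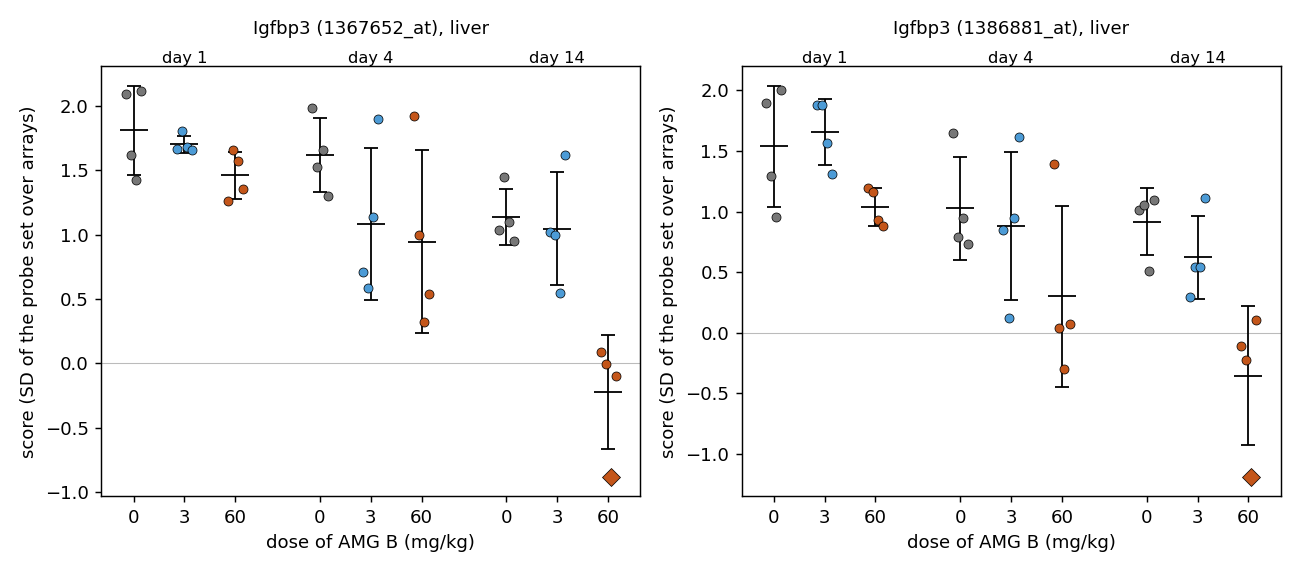
Scores of both Igfbp3 probe sets in liver by dose of AMG B and day, 1 point per animal, with bars at the mean ± SD (n = 4) and a diamond for animal 35. At day 14 all 4 animals on 60 mg/kg AMG B lie below all 4 controls at both probe sets, and at days 1 and 4 the groups overlap.

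In pancreas, measured at day 14, the Notch ligand Dll4 fell at 60 mg/kg AMG B. Probe set 1379790_at scored 0.55, 1.06, 0.59 and 0.50 at 60 mg/kg, against 2.65, 2.73, 2.15 and 3.43 in controls. The groups lay more than 1 score apart, and the difference was -2.06 (SE 0.25, 95% interval -2.59 to -1.54, limma adjusted p = 0.00015). The 3 mg/kg animals had 1.64, 2.12, 1.63 and 1.98, below every control and above every 60 mg/kg animal, with a difference from controls of -0.90 that did not pass (limma adjusted p = 0.27). The 60 minus 3 mg/kg difference was -1.16 (limma adjusted p = 0.014), a call lost without animal 30.

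The second Dll4 probe set, 1394367_at, did not follow. It scored -0.05, -1.34, -1.07 and -0.46 at 60 mg/kg, against -1.47, -1.90, -1.78 and -1.11 in controls, a difference of 0.84 in the opposite direction that did not pass (limma adjusted p = 0.064). The mean of the 2 probe sets gave no call for Dll4. After subtraction of the mean of each tissue and study, this Dll4 pair correlated at -0.233 over all arrays of the larger table. Which of them follows the Dll4 transcript in pancreas cannot be told from these files.

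Aplnr fell in pancreas at 1369301_at, the probe set that was not called in adrenal gland. Its scores were 1.15, 1.22, 0.62 and 0.53 at 60 mg/kg, against 3.27, 2.73, 1.88 and 1.75 in controls, without overlap. The difference was -1.53 (SE 0.38, 95% interval -2.32 to -0.73, limma adjusted p = 0.016), and the call was lost without control animal 25 or 26. At 1379772_at the scores were -0.58, -1.22, -0.06 and 0.33, against 0.57, 0.36, 1.61 and 1.13, also without overlap, with a difference of -1.30 (95% interval -2.56 to -0.03, limma adjusted p = 0.18). Limma called 9.88% of all probe sets in this comparison, against 2 of 13 members (15.4%), and groups without overlap made up 17.9% of all probe sets and 3 of 13 members. At 3 mg/kg limma called 0.0226% of all probe sets and 0 of 13 members, and 2 had a raw p below 0.05.

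Markers of the pancreas itself fell in the same animals. Of 10 pancreatic acinar and islet probe sets, 9 fell at 60 mg/kg (median difference -1.07), with list means of 1.78, 1.75, 1.68 and 1.66 against 2.69, 2.63, 2.35 and 2.70 in controls. Their part in the fall of Dll4 and Aplnr was not tested. Notch1 (1371491_at), a Notch receptor, averaged 0.73 ± 0.10 at 60 mg/kg and 2.94 ± 0.16 in controls (SD, n = 4 each), while Notch4 (1375570_at) averaged -0.90 ± 0.73 and -3.19 ± 0.35, and of the 21 Notch pathway probe sets 3 fell and 2 rose. Of 33 general endothelial probe sets 4 fell (12.1%), among them Tek (1393067_at) by 1.62 (limma adjusted p = 0.0089), and of 42 other tip-cell probe sets 3 rose and 2 fell (11.9%), shares near the 9.88% of all probe sets. Vegfa, the VEGF ligand, rose at both probe sets, by 1.05 at 1370081_a_at and 1.12 at 1373807_at (limma adjusted p of 0.00062 and 0.014). Kdr fell by 0.73 at 1397868_at (limma adjusted p = 0.017) and differed by -0.47 at 1367948_a_at (limma adjusted p = 0.63).

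Cxcr4 was high in single pancreas samples and was not called at any dose. Probe set 1370097_a_at had 3.33 in animal 33 and -0.60, -0.52 and -0.66 in the other 3 animals at 60 mg/kg, against -0.65, -0.76, -0.85 and -0.56 in controls. The difference of 1.10 (limma adjusted p = 0.46) was 0.12 without animal 33. In the AMG A study the highest value was in control animal 3009, with 4.37, and the other controls had -0.40, 1.40 and -0.47. The mean of 22 leukocyte probe sets, for 18 of 20 listed markers, was high in the same samples, 3.04 in animal 33 and -0.31, -0.07 and -0.15 in the other 3 at 60 mg/kg, and 4.79 in animal 3009 beside 0.15, 1.60 and -0.01 in its group. At 3 mg/kg AMG B Cxcr4 had 0.82, -0.61, 1.10 and -0.69 and the leukocyte list 2.37, 0.37, 2.52 and 0.12, so the same 2 animals were high in both.

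Other members were high in those samples too. Igfbp3 1386881_at had 3.53 in animal 33, with -0.64, -1.08 and -0.40 in the other 3, and 3.40 in animal 3009. Plvap had 2.05 in animal 33 and -0.29, 0.12 and 0.02 in the other 3 at 60 mg/kg, against 1.76, 0.91, 2.26 and 1.73 in controls, a difference of -1.19 (limma adjusted p = 0.28) that was -1.71 without animal 33 (limma adjusted p = 0.14). Pericyte markers averaged 2.40 in animal 33 and -0.52 to 0.97 in the other 3. The part of leukocyte and pericyte markers in these values was not tested.

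**Figure D5:**
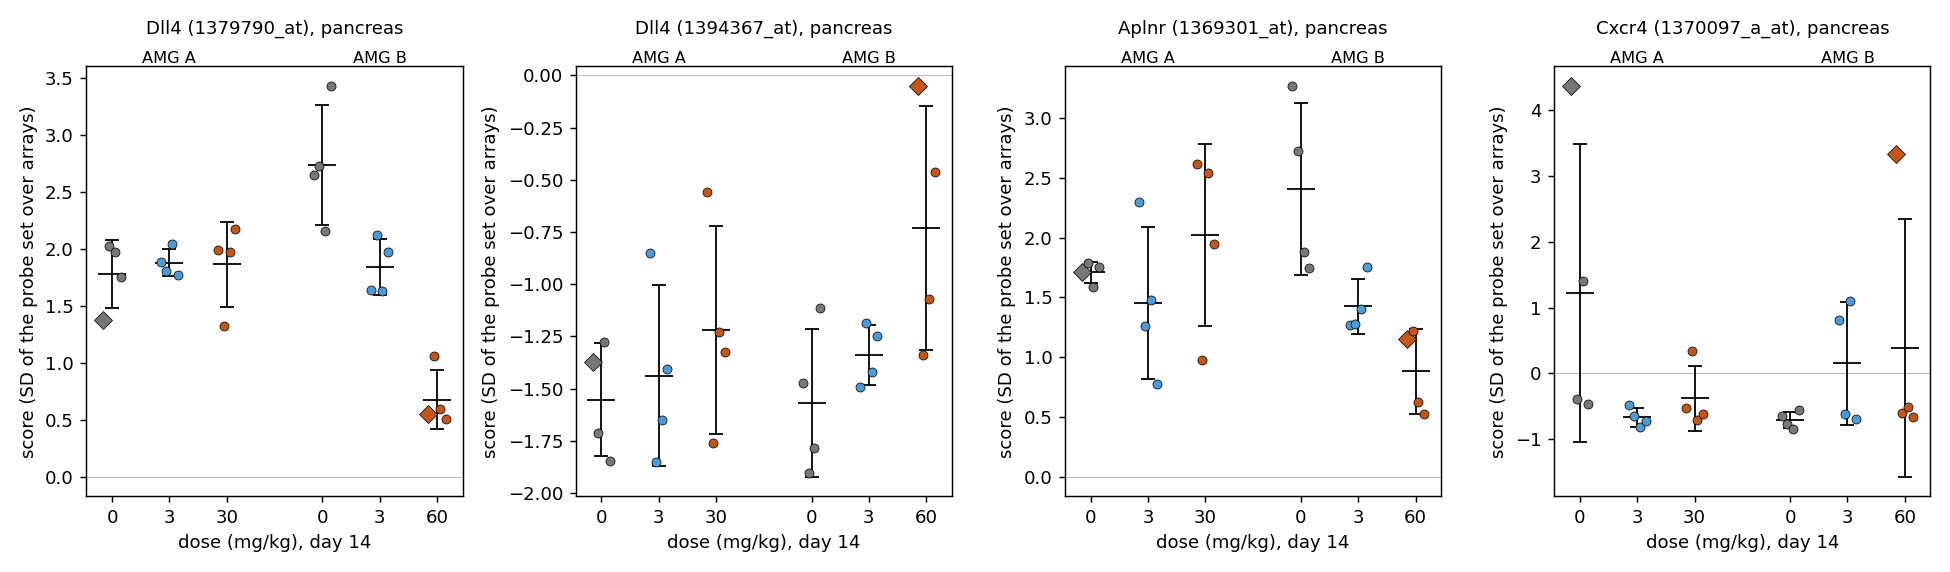
Scores of 2 Dll4 probe sets, Aplnr 1369301_at and Cxcr4 1370097_a_at in pancreas at day 14 by dose of AMG A and AMG B, 1 point per animal, with bars at the mean ± SD (n = 4) and diamonds for animal 33 at 60 mg/kg AMG B and control animal 3009 of the AMG A study. Dll4 1379790_at steps down with the dose of AMG B and not of AMG A, and its AMG B controls lie above its AMG A controls. The high Cxcr4 means come from the 2 marked animals and a few others.

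AMG A gave no call in any tissue. In 112 tests of member probe sets limma called 0, and 8 had a raw p below 0.05 (7.14%, against 7.09% of all probe set tests with AMG A), of which 4 were at 3 mg/kg and 4 at 30 mg/kg. In liver limma called 0.0378%, 0.0126% and 0.0063% of all probe sets at 3 mg/kg on days 1, 4 and 14, and 0.366%, 0.0693% and 0.353% at 30 mg/kg, and 0 of 10 members each time, with 1 of the 10 at a raw p below 0.05 in each of the 6 comparisons, where 7.19 to 12.6% of all probe sets had one. In adrenal gland it called 0% of all probe sets at 3 mg/kg and 0% at 30 mg/kg, and 0 of 13 members, and 0 had a raw p below 0.05 at either dose. In pancreas it called 0.00322% at 3 mg/kg and 0.00322% at 30 mg/kg, and 0 of 13 members, and 1 had a raw p below 0.05 at each dose.

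In liver at day 14 with AMG A, Igfbp3 1367652_at had -0.31, -0.65, -0.36 and 0.17 at 30 mg/kg and -0.13, -0.75, -0.36 and -0.15 at 3 mg/kg, against 0.11, 0.41, 0.19 and -0.06 in controls. The 3 mg/kg animals lay below all controls (difference -0.51, 95% interval -0.99 to -0.03, limma adjusted p = 0.62), and the 30 mg/kg animals overlapped them (difference -0.45, 95% interval -0.93 to 0.03, limma adjusted p = 0.43). In adrenal gland Aplnr 1379772_at had 0.85, 0.54, -0.04 and 0.31 at 30 mg/kg, against 1.80, -0.17, 1.06 and 1.55 in controls, overlapping (difference -0.65, 95% interval -1.49 to 0.20, limma adjusted p = 0.98). Cxcr4 1370097_a_at had 0.28, 0.67, 0.52 and 0.33 at 30 mg/kg, against 2.21, 0.90, 1.13 and 0.76 in controls, without overlap but also uncalled (difference -0.79, limma adjusted p = 0.99). Esm1 and Apln 1389651_at in adrenal gland differed by 0.15 and 0.10 at 30 mg/kg, with 95% intervals of -1.42 to 1.73 and -2.01 to 2.21 in a fit whose shared estimate of spread includes animal 35 of the AMG B study. Pancreatic Dll4 1379790_at had 1.99, 1.32, 1.98 and 2.17 at 30 mg/kg, against 1.37, 2.03, 1.97 and 1.75 in controls (difference 0.08, 95% interval -0.44 to 0.61). Every one of these controls lay below every control of the AMG B study.

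The compounds can be set against each other only at 3 mg/kg and day 14, since the high doses, 30 mg/kg for AMG A and 60 mg/kg for AMG B, differ. The difference between their effects was tested for 13 probe sets in each of adrenal gland and pancreas, 26 pairs, with p-values adjusted over all probe sets. None passed: limma called 0.00644% of all probe sets in adrenal gland and 0% in pancreas, and 0 of 13 members in each, and 1 and 2 had a raw p below 0.05. In adrenal gland Aplnr 1379772_at stood 1.31 higher with AMG A than with AMG B, each relative to its controls (95% interval 0.12 to 2.51, limma adjusted p = 1). In pancreas Dll4 1379790_at stood 1.00 higher with AMG A (95% interval 0.26 to 1.74, limma adjusted p = 0.48). The AMG B controls of this probe set lay above the AMG A controls, as given above. Cxcr4 1370097_a_at differed by -2.75 in pancreas, lower with AMG A (95% interval -5.35 to -0.15, limma adjusted p = 0.53), where control animal 3009 of the AMG A study had the 4.37 given above. For Plvap in adrenal gland the difference was 0.19 (95% interval -0.36 to 0.74), and for Esm1 there 0.15 (95% interval -2.07 to 2.38). A p that misses the threshold does not show that the compounds acted alike.

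Without compound, the share of members that differed between tissues was above that of all probe sets for adrenal gland against liver and below it for the other pairs. The comparison used day 14 controls of the AMG B study, in which the 3 tissues came from the same 4 rats. In adrenal gland minus liver 7 of 13 members were higher and 2 lower (69.2%, against 51.4% of all probe sets), in pancreas minus liver 4 were higher and 2 lower (46.2%, against 60.8%), and in adrenal gland minus pancreas 4 were higher and 3 lower (53.8%, against 63.9%). Plvap averaged 0.84 ± 0.37 in adrenal gland, 1.66 ± 0.56 in pancreas and -0.59 ± 0.09 in liver (SD, n = 4 each). Pancreas thus stood highest and liver lowest for the diaphragm gene, with limma adjusted p of 0.011 for adrenal gland against pancreas, which overlapped, and 2.7e-05 for adrenal gland against liver. The pancreas and adrenal gland order of Plvap was lost as a call without animal 25 or 27.

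In these AMG B study controls Cxcr4 stood highest in adrenal gland, above liver by 2.16, 2.26 and 2.23 and above pancreas by 2.28, 2.12 and 1.89 at its 3 probe sets. In day 14 controls of the AMG A study the adrenal gland and pancreas values of Cxcr4 1370097_a_at, given above, overlapped. Igfbp3 1367652_at stood highest in liver, with differences of -2.16 for adrenal gland and -1.90 for pancreas, and 1386881_at differed from liver by -1.38 in adrenal gland, a call lost without animal 25. Aplnr 1369301_at stood highest in pancreas, above liver by 3.35 and with adrenal gland 1.16 above liver, while 1379772_at stood 2.10 above liver in adrenal gland and 1.41 above it in pancreas. Dll4 1379790_at averaged 2.74 ± 0.53 in pancreas, -0.55 ± 0.01 in adrenal gland and -0.51 ± 0.02 in liver (SD, n = 4 each), and 1394367_at averaged -1.57 ± 0.35, 1.16 ± 0.26 and -0.32 ± 0.41 in the same order. The tissue order of Dll4 therefore depends on the probe set. No tissue difference of Esm1 or Apln passed the test.

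The effect of 60 mg/kg AMG B was then compared between tissues. At day 1 no member's effect differed between adrenal gland and liver, where limma called 0.0226% of all probe sets and 0 of 13 members, and 1 had a raw p below 0.05. At day 4 limma called 0.0966% and 1 of 13 members (7.69%), Aplnr 1379772_at, whose effect was more negative in adrenal gland by -3.27 (limma adjusted p = 0.00067). At day 14 the adrenal minus liver difference in effect was 3.63 for Esm1 (limma adjusted p = 0.0084), 3.97 for Apln 1389651_at (limma adjusted p = 0.037) and -3.10 for Aplnr 1379772_at (limma adjusted p = 0.00013), which made 3 of 13 members (23.1%), against 2.69% of all probe sets. The Esm1 call was lost without animal 25 and the Apln call without animal 25, 26, 27 or 28. Without animal 35 the differences were 1.71 for Esm1 (limma adjusted p = 0.021) and 1.33 for Apln 1389651_at (limma adjusted p = 0.0072).

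Pancreas differed from liver in 4 of 13 members at day 14 (30.8%, against 21.1% of all probe sets). The pancreas minus liver difference in effect was -2.04 for Dll4 1379790_at (limma adjusted p = 5.3e-14), -1.81 and -1.49 for Aplnr 1369301_at and 1379772_at, and 1.59 for Igfbp3 1367652_at (limma adjusted p = 0.014). The Aplnr 1379772_at call was lost without animal 27, 28, 33 or 34 and the Igfbp3 call without animal 26 or 33. Adrenal gland differed from pancreas in 9 of 13 members (69.2%, against 21.1% of all probe sets), 5 with the adrenal effect more positive and 4 more negative. The 9 hold every probe set of Apln, Aplnr and Cxcr4, so these genes count more than once. Among the 9 were Esm1 (3.45, limma adjusted p = 0.0025), Apln 1389651_at (4.04, limma adjusted p = 0.0066) and Dll4 1379790_at (2.06, limma adjusted p = 4.2e-14). Without animal 35 the first 2 were 1.83 (limma adjusted p = 0.0017) and 1.27 (limma adjusted p = 0.0016). Cxcr4 differed by -2.15, -2.22 and -2.33 (limma adjusted p of 0.024, 0.016 and 0.016), calls that were lost without animal 25 or 33, and the first also without animal 26. Without animal 33 these Cxcr4 differences were -1.19, -1.15 and -1.26. The Apln 1368258_at call (2.56) was lost without animal 27, 28 or 35 (0.89 without animal 35), and that of Aplnr 1379772_at (-1.61) without animal 25, 26, 33 or 36.

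Effects at day 14 and day 1 could be compared directly in liver and adrenal gland, and with every animal included no member's change over time passed the test. Limma called 1.16% of all probe sets in adrenal gland under 60 mg/kg AMG B, 0.193% in liver under 60 mg/kg AMG B and 0% in liver under 30 mg/kg AMG A, and 0 members in each, and 7, 1 and 0 had a raw p below 0.05. In adrenal gland the day 14 minus day 1 effect was 2.93 for Esm1 (95% interval 0.71 to 5.16, limma adjusted p = 0.19), 3.76 for Apln 1389651_at (limma adjusted p = 0.22) and -1.29 for Aplnr 1379772_at (limma adjusted p = 0.31). Without animal 35 the first was 1.11 (limma adjusted p = 0.24), the Apln 1389651_at difference was 1.17 and passed (limma adjusted p = 0.0037), and the Aplnr difference was -1.54 (limma adjusted p = 0.27). The high minus low dose comparison of AMG B at day 14 called 4.5% of all probe sets and 4 of 13 members in adrenal gland (30.8%), 3.79% and 1 member in liver (7.69%), and 3.68% and 1 member in pancreas (7.69%). In adrenal gland these were Esm1 (3.35, and 1.53 without animal 35), Apln 1389651_at (3.75, and 1.16 without animal 35), Aplnr 1379772_at (-1.38, limma adjusted p = 0.046) and Plvap. Omission of animal 29, 31 or 32 ended the Apln call, of animal 30, 31, 32, 33 or 36 the Aplnr call, and of animal 29, 32, 33 or 36 the Plvap call.

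For correlations between probe sets, the mean of each tissue and study was first subtracted from the scores. The probe sets whose remaining values ran closest to each member over all arrays of the larger table were listed by Pearson correlation. The list is a description over arrays that share tissue, dose and animal. Aplnr 1379772_at ran closest to Emcn (1372587_at), an endothelial surface sialomucin, at r = 0.700, and 0.702 over the 105 arrays without animal 35. Plvap ran closest to Icam2 (1389235_at), an endothelial adhesion molecule, at r = 0.729, and Epas1 (1398333_at), the endothelial hypoxia-inducible factor subunit, at r = 0.716. Igfbp3 1367652_at ran closest to Dnase1l3 (1368294_at) at r = 0.641 and 1386881_at to Arrb2 (1370265_at) at r = 0.754. Cxcr4 1373661_a_at ran closest to Rgs1 (1398540_at), a G protein regulator of lymphocytes, at r = 0.815.

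The correlations of Esm1 and Apln rested on animal 35. Esm1 ran closest to Testin (1370457_at) at r = 0.847, which was 0.344 without that animal, and Apln 1389651_at to Timp1 (1367712_at), a metalloproteinase inhibitor, at r = 0.923, which was 0.242 without it. Esm1 and Apln 1389651_at correlated at 0.886 with each other over all arrays. Dll4 1379790_at ran closest to Ece2 (1378949_at) at r = 0.907. Its score was high in pancreas only, and tissue means were subtracted before this r was taken. Dll4 1394367_at had no probe set above 0.460, that of Blm (1382783_at). The 3 Cxcr4 probe sets correlated at 0.981 to 0.989 and the 2 Igfbp3 probe sets at 0.768.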

How the data were processed

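Per the labels, total RNA from liver, adrenal gland and pancreas was labelled with biotin and hybridised to Affymetrix rat arrays of 2 designs, the smaller one for the livers of the AMG A study. The authors deposited scores: each probe set was centred and scaled over all arrays, and probe sets on both designs were standardised over both together. No source used here gives the scale before standardisation, the background correction or the array scaling, and the deposited scores keep no signal over background, so the precision rests on 4 animals per group.

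Each array column was matched to its labelled sample, with 0 columns unmapped and 0 missing values. The highest correlation between any pair of arrays was 0.792, so none was a copy. Of the larger table's probe sets, 20826 had 1 gene symbol, 436 several and 9780 none (12783, 312 and 2771 in the smaller), and only those with 1 symbol were named. Scores were tested as deposited with limma 3.58.1 (R 4.3.3; lmFit, contrasts.fit, eBayes with a trend), two-sided, with Benjamini-Hochberg adjustment over every probe set of a table within each of 49 contrasts and a threshold of 0.05. There were 5 fits: the livers of each study, adrenal gland, pancreas, and all 84 AMG B arrays for the comparisons between tissues. The livers of the 2 studies lie in different tables and were not tested against each other.

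The member genes and the gene lists were chosen with earlier results of these data known. All member probe sets were described, with at most 4 called genes of the largest difference per list and contrast. Kdr, Flt1, Vegfa and Pecam1 were further points, as were the 3 probe sets that correlated most with each member. All correlations between probe sets used scores minus the mean of their tissue and study. Same-numbered arrays of different tissues come from the same rat, which pairs them by design. Their deviations from the group means correlated at a median of 0.0415 (liver and adrenal gland), 0.0149 (liver and pancreas) and 0.0227 (adrenal gland and pancreas).

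In simulated data for each fit, 100 probe sets were shifted by 4 within-group SD and 100 by 2 SD, in normal noise of the same SD in every group. Shifts of 4 SD were called in 91% (adrenal gland), 72% (pancreas), 88% (AMG B liver) and 93% (AMG A liver), and shifts of 2 SD in 13%, 3%, 13% and 12%. Single animals far from their group, such as animal 35, were not simulated. The alternatives included quantile normalization, keeping probe sets that passed percentile 40 of their array in 4 or more arrays, only the groups compared, no trend, array weights, the mean of a gene's probe sets, a replicate block and omission of each animal. The gene lists were also counted without animal 35, an alternative chosen after seeing the data. Promoters were read from RefSeq (GRCr8) and searched in Python 3.11.15.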

Additional observations from a re-analysis of the deposited data

Results flagged for a closer look

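Among groups of 4 animals, a highest or lowest value stood apart from the other 3 by Dixon's test in 39 of 441 groups of member scores (8.84%), where chance gives about 1 in 20. In the groups behind a called result, and in the pancreas Cxcr4 groups, these were as follows. They included Apln 1389651_at in adrenal gland at 60 mg/kg AMG B and day 14, where animal 35 had 11.3, and pancreas Cxcr4 in animal 33 at 60 mg/kg AMG B, with 3.33, 3.77 and 4.01 at its 3 probe sets. In the same pancreas group Dll4 1379790_at had 1.06 in animal 34 against 0.50 to 0.59 in the other 3. Pancreas Cxcr4 1389244_x_at had 0.029 in animal 3024 of the 3 mg/kg AMG A group, and Igfbp3 1386881_at had 0.51 in liver of control animal 27 on day 14 of the AMG B study. Igfbp3 1367652_at had 1.02 in pancreas of animal 33. Day 14 controls of that study also stood apart for Dll4 1394367_at, with 1.55 in adrenal gland of animal 27 and -0.94 in liver of animal 26, and for Cxcr4 1373661_a_at, with -0.63 in liver of animal 26. In liver, Aplnr 1379772_at had -0.67 in day 4 control animal 14 and -0.47 in animal 33 at 60 mg/kg and day 14, where Dll4 1379790_at had -0.50 in animal 36.

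The effect of 60 mg/kg AMG B differed between tissues, by limma's test of the difference, in 17 cases. Adrenal minus liver gave -3.27 for Aplnr 1379772_at at day 4, and at day 14 -3.10 for the same probe set, 3.63 for Esm1 and 3.97 for Apln 1389651_at, which were 1.71 and 1.33 without animal 35. Pancreas minus liver at day 14 gave -1.81 and -1.49 for Aplnr 1369301_at and 1379772_at, -2.04 for Dll4 1379790_at and 1.59 for Igfbp3 1367652_at. Adrenal minus pancreas gave 3.45 for Esm1, 2.56 and 4.04 for Apln 1368258_at and 1389651_at, 1.67 and -1.61 for Aplnr 1369301_at and 1379772_at, 2.06 for Dll4 1379790_at, and -2.15, -2.22 and -2.33 for the Cxcr4 probe sets. Without animal 35 the Esm1 difference was 1.83 and the Apln differences 0.89 and 1.27, of which the 0.89 was no longer called. The Cxcr4 differences include animal 33, and with that animal left out they were -1.19, -1.15 and -1.26 and none of the 3 passed the test.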

How the results depend on the processing

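Of 56 calls of a member probe set, 24 held under every alternative tried, and most of the 24 were tissue levels in controls. The 56 comprise 22 calls of such levels, 17 of effects between tissues, 6 between doses and 11 of dosed groups against controls. Among the 11, those of Aplnr 1379772_at in adrenal gland at 60 mg/kg on days 4 and 14 alone held throughout. No call between doses did. Of 735 alternative values of the 56 calls, 622 kept direction and call, 110 kept direction and missed the threshold, and 3 changed sign. With only the groups compared, which leaves fewer arrays to estimate the spread, member calls numbered 0 of 2 in liver at 60 mg/kg AMG B, 0 of 1 in adrenal gland at 3 mg/kg, 2 of 6 in adrenal gland at 60 mg/kg, 1 of 2 in pancreas at 60 mg/kg, 0 of 6 between high and low dose and 8 for effects between tissues, 6 of them among the 17. Array weights left 1 call in liver at 60 mg/kg and gave 10 between tissues, 8 of them among the 17, and quantile normalization left 1 in pancreas; the cause was not tested. Counted as genes, with probe sets averaged, calls numbered 1 in liver and 1 in pancreas at 60 mg/kg, 3 between doses, 12 for tissue levels (22 probe sets) and 9 for effects between tissues. Averaging turned Dll4 1394367_at to 1.00 for pancreas minus liver and -0.28 for adrenal minus pancreas in controls, and Aplnr 1379772_at to 0.031 for the adrenal minus pancreas effect, since the paired probe set differs.

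Leaving out 1 animal at a time gave 5 to 7 calls in adrenal gland at 60 mg/kg AMG B, 0 to 1 there at 3 mg/kg, 1 to 2 in liver and 1 to 3 in pancreas at 60 mg/kg, 20 to 22 for tissue levels, 11 to 18 for effects between tissues, 3 to 7 between doses and 0 to 1 between days. The counts of 0 under AMG A, under 3 mg/kg AMG B in liver and pancreas, and between compounds were 0 under every alternative. With the animal as a replicate block, the pairing of tissues left 22 and 17 calls. Background correction, a pseudocount and scan dates could not be varied on scores. Signal over background is unknown, and with 4 animals per group the simulated shifts of 2 SD were mostly missed.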
